A study of Mus musculus with 6 samples.

Results

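Collagens XIII, XVII, XXIII and XXV, which span the cell membrane, and collagens XV and XVIII, the multiplexins of the basement membrane zone, were followed in mesenteric arteries after deletion of beta1 integrin in smooth muscle. The genes were defined by family membership as Col13a1, Col17a1, Col23a1, Col25a1, Col15a1 and Col18a1, and every probe set whose single annotated symbol is among them was taken. That gave 6 of 18193 named genes and 10 of 45037 probe sets. The family was chosen from results of these arrays, because Col13a1 stood lower and Col15a1 higher in the knockout. The differences of all 6 genes are therefore given as description, with no p-value or threshold call. Their intervals show how precisely each difference between group means was estimated. For genes chosen by that difference, the intervals may not keep their stated coverage.

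The 3 knockout mice (animals 72, 73 and 86) carried loxP-flanked beta1 integrin alleles and a Cre recombinase driven by the smooth muscle promoter SM22alpha. The 3 control mice (30, 74 and 75) carried the same floxed alleles without Cre. Both groups had a mixed background that included FVB, SVJ129 and C57BL/6, and both received 14 daily doses of 1 mg tamoxifen starting at 5 weeks of age, with sampling at 7 weeks. Each array holds the total RNA of whole arteries from 1 animal, after removal of adipose and lymph tissue, so cells that the promoter does not reach were measured too.

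Transmembrane collagens are made as type II membrane proteins with a short cytosolic end, and their triple-helical ectodomains can be cut from the cell surface by furin-like proprotein convertases or by ADAM sheddases. Multiplexins are secreted, carry glycosaminoglycan chains and interrupted triple helices, and release from their C-terminal ends the fragments restin (collagen XV) and endostatin (collagen XVIII), which are known to inhibit angiogenesis. Beta1 integrins are among the receptors for collagens, and collagen XIII is itself bound by an integrin of that class. In mouse tissues Col15a1 and Col13a1 are also used to mark subsets of fibroblasts.

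The annotated start regions of the pair with opposite differences, and of the second multiplexin, are shown because they differ in composition. The sequences are from RefSeq (GRCm38.p6), run 5′ to 3′ on the gene's strand from 250 bases before the annotated start to 50 bases after it, and capitals mark matches to the motifs named after them. The Col13a1 window lies at chr10:61979059-61979358 on the minus strand and the Col15a1 window at chr4:47207762-47208061 on the plus strand. Col18a1 has 2 windows in the table, at chr10:77166481-77166780 and chr10:77113656-77113955, both on the minus strand.
Col13a1: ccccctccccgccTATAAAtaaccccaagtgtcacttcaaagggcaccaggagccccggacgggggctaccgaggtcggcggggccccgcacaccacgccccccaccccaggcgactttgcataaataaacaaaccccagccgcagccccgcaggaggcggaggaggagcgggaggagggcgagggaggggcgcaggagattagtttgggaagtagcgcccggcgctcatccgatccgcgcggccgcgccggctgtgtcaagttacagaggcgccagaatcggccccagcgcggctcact
Col15a1: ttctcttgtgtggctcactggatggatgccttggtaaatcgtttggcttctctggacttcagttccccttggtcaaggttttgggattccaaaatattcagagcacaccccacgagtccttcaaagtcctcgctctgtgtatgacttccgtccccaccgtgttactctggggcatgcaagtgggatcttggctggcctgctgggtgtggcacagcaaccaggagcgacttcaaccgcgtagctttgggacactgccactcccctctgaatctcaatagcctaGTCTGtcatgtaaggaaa
Col18a1 upstream start: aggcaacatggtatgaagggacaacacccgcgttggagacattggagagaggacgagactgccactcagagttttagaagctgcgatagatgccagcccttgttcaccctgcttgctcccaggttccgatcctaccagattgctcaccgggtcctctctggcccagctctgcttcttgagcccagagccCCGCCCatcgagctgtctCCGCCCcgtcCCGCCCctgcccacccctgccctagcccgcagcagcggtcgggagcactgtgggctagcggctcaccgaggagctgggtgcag
Col18a1 downstream start: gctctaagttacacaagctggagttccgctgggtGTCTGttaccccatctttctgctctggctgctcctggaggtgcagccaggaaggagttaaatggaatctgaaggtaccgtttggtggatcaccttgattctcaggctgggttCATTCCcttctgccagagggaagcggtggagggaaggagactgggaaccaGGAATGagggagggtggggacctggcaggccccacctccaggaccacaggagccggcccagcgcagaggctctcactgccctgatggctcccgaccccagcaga

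The Col13a1 window was the richest of these 4 in G and C, at 68.0%, and held 29 CpG dinucleotides. The Col15a1 window held 52.3% G and C and 8 CpG, close to the medians of 52.7% and 7 over all 32851 windows in the table. The 2 Col18a1 windows held 63.3% and 59.7%, with 16 and 6 CpG. Both strands were searched for the TATA box TATAAA, the GC box GGGCGG, the AP-1 motif TGANTCA, the SMAD motif CAGAC, the TEAD motif GGAATG and the CArG box, which overlapped nowhere in the windows shown. Col13a1 had a TATA box 237 bases before its start and no other match, and Col15a1 had a SMAD match 33 bases after it. The upstream Col18a1 start had 3 GC boxes within its last 61 bases before the start, and the downstream one had a SMAD match and 2 TEAD matches. Of all windows, 13.6% held the TATA box, 35.7% the GC box, 7.81% the AP-1 motif, 49.6% the SMAD motif, 14.7% the TEAD motif and 1.63% the CArG box. These matches describe letters in the windows and not sites of binding.

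Each array gave 1 linear intensity for a probe set, with array medians between 62.8 and 72.6 and no calls of detection. The precision is limited by the number of arrays. Tests were made on log2(intensity + 1) after quantile normalization, over the 11378 genes whose brightest probe set averaged at or above the median of all probe sets (a log2 value of 6.10). Differences are knockout minus control on that scale, which understates changes at low signal. A gene passed the threshold at a Benjamini-Hochberg adjusted p under 0.05 in limma. Of all genes tested, 2.63% passed, 1.93% higher and 0.694% lower in the knockout. The targeted gene Itgb1 had mean log2 values of 10.61 ± 0.13 in knockout and 11.35 ± 0.40 in control arteries (SD, n = 3 each), which is 60.1% of the control level, and did not pass (difference -0.73, SE 0.22, adjusted p = 0.129, limma). These values are from the brightest Itgb1 probe set, and the gene has 5 others. Where the probe sets lie relative to the loxP-flanked part of the gene was not analysed here. Xist stood at 11.83 in knockout 86, whose title bears F where the other 5 bear M, and at 5.29 to 6.09 elsewhere, so sex is not balanced between the groups.

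Of the 6 genes, 4 passed the signal filter with 5 of the 10 probe sets: Col13a1, Col15a1, Col18a1 with both probe sets, and Col23a1 with 1 of 3. Col17a1 and Col25a1 lay below it. By probe set, 4 of 10 had groups that did not overlap, 3 higher and 1 lower, where 20.1% of all probe sets did not overlap, 9.25% higher and 10.9% lower. By gene, 3 of the 4 above the filter did not overlap, against 28.1% of all genes tested. The contrast chose the family, so nothing is read from these shares. The median difference of the 4 genes was 0.02, against -0.05 over all genes tested, because the opposite signs met in it.

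**Figure D1:**
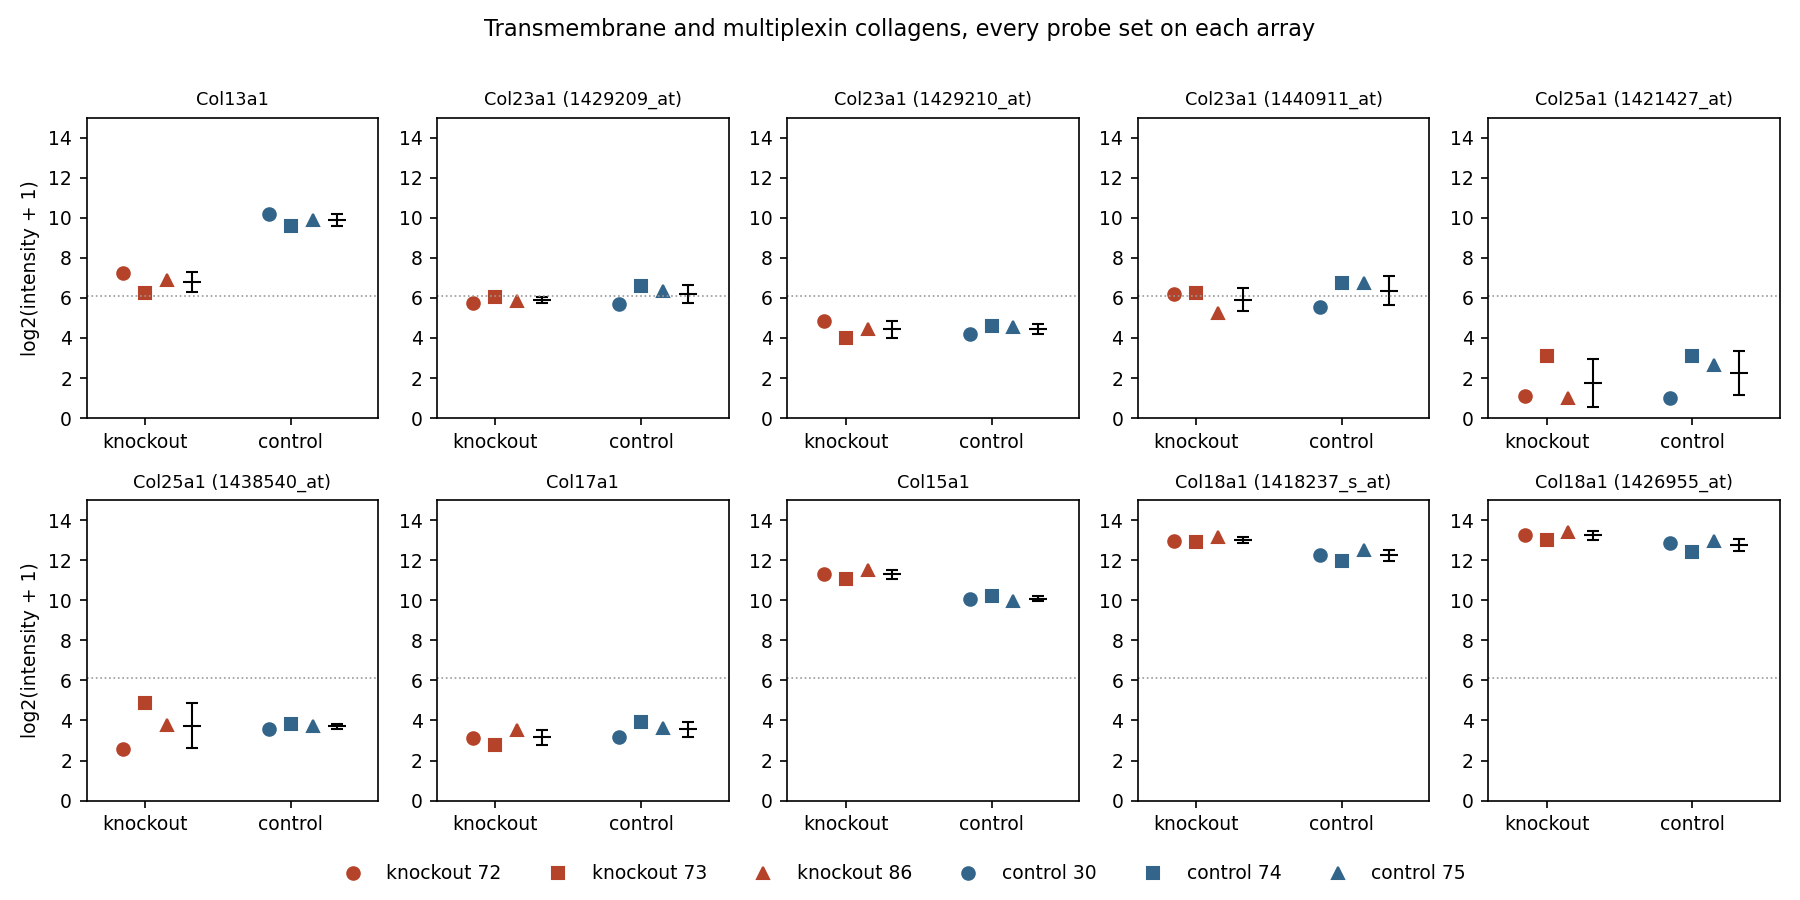
Log2(intensity + 1) of the 10 probe sets on each array, knockout at the left and control at the right of each panel, with the group mean ± SD as a black bar and the filter level as a dotted line. Col13a1 lies lower and Col15a1 and both Col18a1 probe sets lie higher in every knockout array than in any control array, while the other probe sets overlap.

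Col13a1, the collagen XIII gene, was the member with the lower level in the knockout. Its probe set had intensities of 161 in knockout 72, 75.4 in knockout 73 and 119 in knockout 86, against 1143 in control 30, 778 in control 74 and 912 in control 75. The groups lay far apart, with the brightest knockout array well under the dimmest control array. On the log2 scale the means were 6.79 ± 0.52 in knockout and 9.88 ± 0.28 in control arteries (SD, n = 3 each). The difference was -3.09 (SE 0.28), an 8.53-fold lower level with a 95% confidence interval of 5.36 to 13.6. It was the lowest difference of all 11378 genes tested. The mean of the knockout arrays also lay above the filter level, so Col13a1 did not enter the test through the controls alone. Still, knockout 73 stood close to the median of its array (69.2). Without calls of detection, whether the knockout signal lay above background was not tested. Because whole arteries were measured, fewer cells that carry the transcript and less transcript per cell cannot be told apart.

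On the log2 scale the 3 knockout arrays differed among themselves in Col13a1 by more than the control arrays did. In intensity the control arrays spread more widely, from 778 to 1143, against 75.4 to 161 in the knockouts. Relative to the control mean on the log2 scale, knockout 73 stood at -3.65, knockout 86 at -3.01 and knockout 72 at -2.62, while the control arrays lay between -0.28 and 0.29. Leaving out 1 array at a time kept the difference between -3.33, without knockout 72, and -2.81, without knockout 73. Without knockout 86 it was -3.13, so it was as large among the 5 arrays titled M. Col13a1 is served by a single probe set, so its difference could not be compared with another probe set.

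Col23a1, the collagen XXIII gene, was near the filter level in both groups, with log2 means of 5.91 in knockout and 6.35 in control arteries. The knockout mean lay below the filter level, so Col23a1 entered the test through its level in the controls. Its brightest probe set had intensities of 78.1, 76.4 and 37.5 in knockouts 72, 73 and 86, against 45.3, 102 and 105 in controls 30, 74 and 75. The groups overlapped, since control 30 was dimmer than 2 of the knockouts. Its difference was -0.45 (SE 0.42, 95% confidence interval -1.43 to 0.54), and it ranged from -0.86 without control 30 to -0.12 without knockout 86. The other 2 probe sets differed by -0.33 (SE 0.26) and -0.02 (SE 0.26) in the fit by probe set, and their groups overlapped as well. The intervals leave room for a lower level of Col23a1 in the knockout and for a higher one.

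Col25a1 and Col17a1 had low signal on every array. The brighter Col25a1 probe set, for the collagen first described in amyloid plaques, had intensities of 5.04, 29.0 and 12.2 in knockouts 72, 73 and 86, against 10.7, 12.9 and 12.3 in controls 30, 74 and 75. The knockout arrays spread to both sides of the controls. The dimmer one was at or near 1 on knockouts 72 and 86 and on control 30, and between 5.46 and 8.06 on the other 3 arrays. Their differences were 0.04 (SE 0.55) and -0.52 (SE 0.77). Col17a1, which encodes a collagen of epithelial hemidesmosomes, had intensities of 7.86, 6.24 and 10.2 in knockouts 72, 73 and 86, against 7.92, 13.4 and 11.4 in controls 30, 74 and 75. The groups overlapped, and the difference was -0.41 (SE 0.28). At this signal no change was detectable for either gene.

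Col15a1, the collagen XV gene, was the member with the clearest higher level. Its probe set had intensities of 2512 in knockout 72, 2083 in knockout 73 and 2996 in knockout 86, against 1071 in control 30, 1164 in control 74 and 979 in control 75. The dimmest knockout array lay above the brightest control array, and the control arrays lay close together. The log2 means were 11.28 ± 0.22 in knockout and 10.08 ± 0.11 in control arteries (SD, n = 3 each), a difference of 1.20 (SE 0.15). That is a 2.30-fold higher level with a 95% confidence interval of 1.79 to 2.96, and 267 genes of the 11378 had a higher difference. With 1 array left out the difference stayed between 1.09, without knockout 86, and 1.32, without knockout 73.

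Col18a1, the collagen XVIII gene, was also higher in every knockout array. Its brighter probe set had intensities of 10080, 7963 and 11630 in knockouts 72, 73 and 86, against 7165, 5639 and 7671 in controls 30, 74 and 75. Knockout 73 and control 75 lay close together, though without overlap. The log2 difference was 0.48 (SE 0.20), 1.39-fold with a 95% confidence interval of 1.01 to 1.92 in the fit by gene. In the fit by probe set the interval of the same difference was -0.06 to 1.02, which spans 0. The second probe set, whose suffix s marks probes that match several transcripts, had intensities of 8191, 7385 and 9998 in the same knockouts, against 4837, 4208 and 5385 in the same controls. Its groups stood farther apart, at 0.78 (SE 0.20) in the fit by probe set. Which of the 2 annotated starts either probe set reads was not analysed here.

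**Figure D2:**
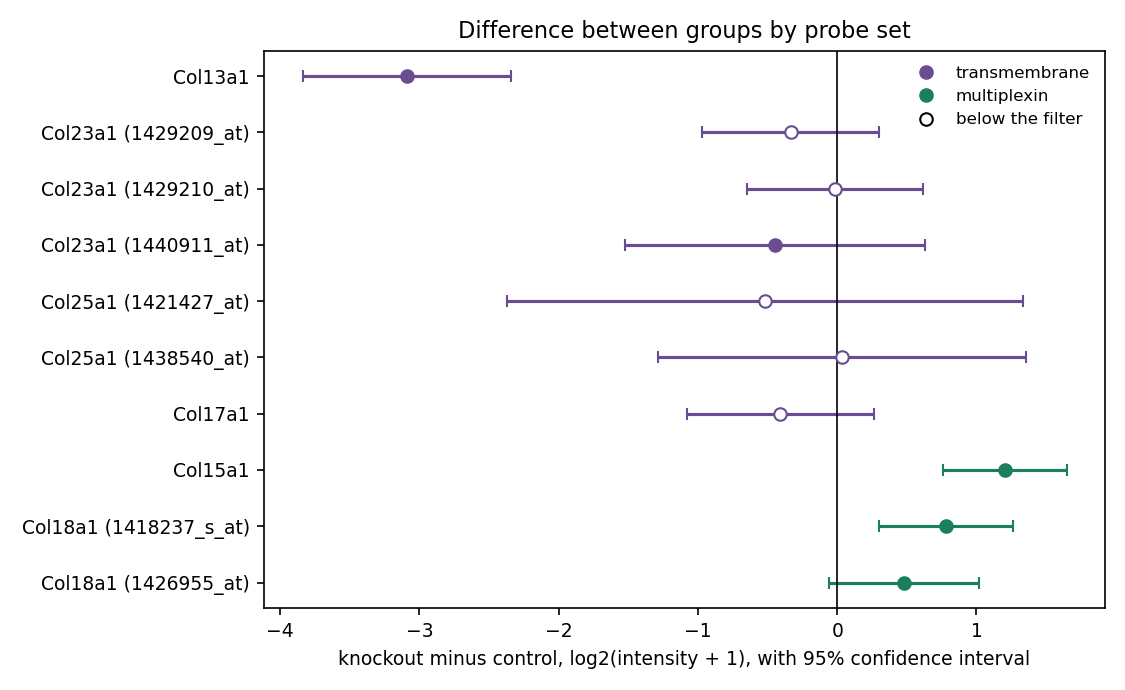
Difference of knockout less control, in units of log2(intensity + 1), for each of the 10 probe sets, as points with 95% confidence intervals from the fit by probe set, with open points for probe sets below the signal filter. Col13a1 stands at -3.09, Col15a1 at 1.20 and the 2 Col18a1 probe sets at 0.78 and 0.48, and the intervals of the Col18a1 probe set at 0.48 and of Col23a1, Col25a1 and Col17a1 span 0.

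The arrays kept different orders for the genes on either side. Among the knockouts, Col15a1 was highest in knockout 86, at 1.42 above its control mean, then in knockout 72 at 1.21 and in knockout 73 at 0.98. Col18a1 had the same order, at 0.66, 0.52 and 0.26. Col13a1 was lowest in knockout 73 too, but highest in knockout 72. Among the controls, animal 74 had the lowest Col13a1 and Col18a1 and the highest Col15a1. With 3 animals in a group these orders are a description.

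Of the other 38 listed collagen chains, 36 are named on the array and 25 were tested. Of these, 5 rose and 0 fell, where 1.93% of all genes tested rose and 0.694% fell. A difference above 0 was found for 23 of 25, with a median of 0.45, where 42.9% of all genes tested had one. By count, 12 of 25 were higher and 1 lower with no overlap, where 12.9% and 15.1% of all genes were. Col5a2, a chain of collagen V that shapes fibril diameter, rose by 1.52 (SE 0.15, adjusted p = 0.00549, limma). Another Col5a2 probe set stood at 1.14 in the fit by probe set. Col5a1, its partner chain, rose by 1.26 (adjusted p = 0.0104), Col1a1, a chain of the main fibrillar collagen, by 1.23 (adjusted p = 0.029), and the beaded filament chains Col6a3 and Col6a1 by 1.30 and 1.04 (adjusted p = 0.0307 and 0.0379). Col5a2 kept its call without any 1 array and Col5a1 lost it without knockout 72 (adjusted p = 0.0597). Col1a1, Col6a3 and Col6a1 were past the threshold in 2, 1 and 0 of the 6 fits of 5 arrays, with highest adjusted p-values of 0.0995, 0.119 and 0.121, and the calls of Col1a1 and Col6a3 were lost without control 75, knockout 72, knockout 73 or knockout 86, and that of Col6a3 also without control 30.

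Among the 29 collagen chains above the filter, Col13a1 had the lowest difference and Col15a1 the sixth highest. Next above Col13a1 stood Col19a1, a collagen of the basement membrane zone, at -1.39 (SE 0.37, adjusted p = 0.106), then Col23a1 at -0.45 and Col27a1, a fibrillar chain, at -0.09. All other chains lay above 0. Col18a1, at 0.48, ranked 11 from the top, between the type IV chains Col4a5 at 0.58 and Col4a3 at 0.48, whose family forms the basement membrane network.

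**Figure D3:**
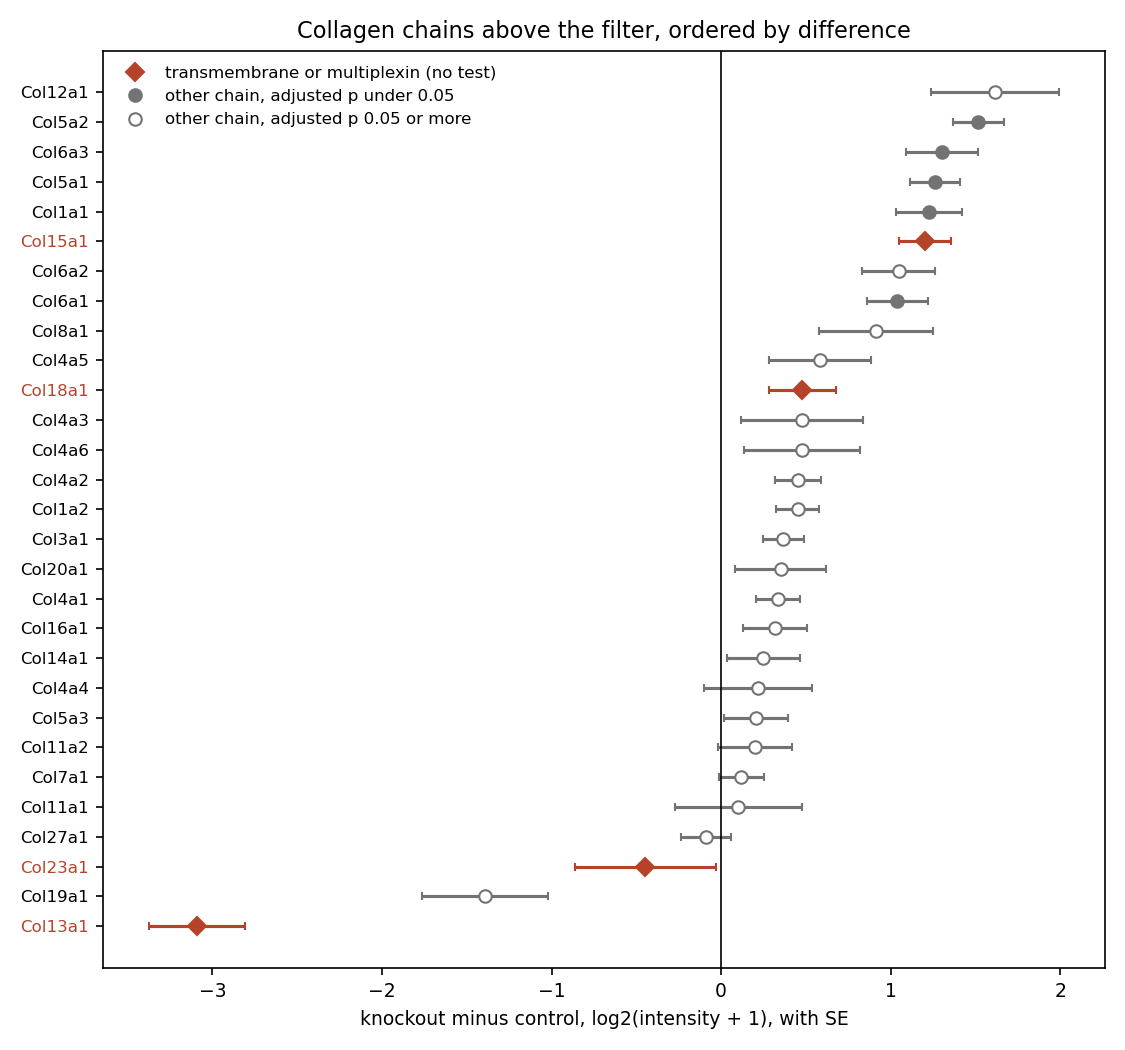
Knockout minus control (log2(intensity + 1)) with SE for the 29 collagen chains above the filter, in order of the difference. Red diamonds are the transmembrane and multiplexin chains, and filled circles are other chains with an adjusted p under 0.05. Col13a1 stands apart at -3.09, and Col15a1 at 1.20 lies between Col6a2 and Col1a1.

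All 19 genes listed for collagen hydroxylation, folding and secretion that are named on the array were tested, out of 20 listed. Of these, 1 rose and 0 fell, where 1.93% of all genes tested rose and 0.694% fell. A difference above 0 was found for 18, with a median of 0.48, where 42.9% of all genes tested had one. With no overlap, 12 of 19 were higher and 0 lower, where 12.9% and 15.1% of all genes were. Before adjustment, 12 of 19 had a limma p under 0.05, 11 of them higher, where 21.4% of all genes did. P4ha3, a catalytic subunit of prolyl 4-hydroxylase, rose by 2.54 (SE 0.37, adjusted p = 0.0225, limma), with intensities of 251, 142 and 325 in knockouts 72, 73 and 86, against 38.6, 23.3 and 52.5 in controls 30, 74 and 75. Its control mean of 5.26 lay below the filter level. Its call was lost without control 30, control 75, knockout 72 or knockout 86 (highest adjusted p 0.0982). The prolyl 3-hydroxylase P3h1 stood at 0.83 (adjusted p = 0.0608), the lysyl hydroxylase Plod2 at 1.01 (adjusted p = 0.0613) and the shared subunit P4hb at 0.52 (adjusted p = 0.0883). Another P3h1 probe set stood at 0.99 and another Plod2 probe set at 1.42 in the fit by probe set.

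Proteases that can shed ectodomains or free endostatin did not move one way. Of 23 listed, 17 were tested, 0 rose and 1 fell, and 12 had a difference above 0, with a median of 0.18. Of all genes tested, 1.93% rose, 0.694% fell and 42.9% had a difference above 0. Before adjustment, 8 of the 17 had a limma p under 0.05, 6 higher and 2 lower, where 21.4% of all genes did. Pcsk6, a proprotein convertase of the furin family, fell by 1.10 on the log2 scale (SE 0.18, adjusted p = 0.0335, limma), with intensities of 163, 150 and 170 in knockouts 72, 73 and 86, against 275, 425 and 305 in controls 30, 74 and 75. It lost its call without control 75, knockout 72, knockout 73 or knockout 86 (highest adjusted p 0.132). The gelatinase Mmp9 stood at -0.64 (adjusted p = 0.0551), the membrane protease Adam9 at 0.46 (adjusted p = 0.0836) and the collagen-degrading cathepsin Ctsk at 1.31 (adjusted p = 0.114).

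Of 18 listed receptors of collagens or endostatin, 15 were tested, of which 1 rose and 0 fell, with a median of 0.08. Of all genes tested, 1.93% rose and 0.694% fell. Before adjustment, 5 of the 15 had a limma p under 0.05, 4 higher and 1 lower, where 21.4% of all genes did. Gpc1, a glypican to which endostatin binds, had intensities of 406, 492 and 409 in knockouts 72, 73 and 86, against 212, 141 and 222 in controls 30, 74 and 75. It rose by 1.13 (SE 0.20, adjusted p = 0.0374, limma) and kept its call in 1 of 6 fits of 5 arrays, that without control 74 (highest adjusted p 0.122). The fibronectin receptor subunit Itga5 stood at 0.75 (adjusted p = 0.0678), Itgb1 at -0.73 and the semaphorin and VEGF co-receptor Nrp1 at 0.47 (adjusted p = 0.159).

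Matrix partners of the basement membrane zone were all tested, 19 of 19, of which 2 rose and 0 fell, with a median of 0.26. Of all genes tested, 1.93% rose and 0.694% fell. Before adjustment, 8 of the 19 had a limma p under 0.05, 8 higher and 0 lower, where 21.4% of all genes did. Fn1, the fibronectin gene, had intensities of 13683, 12337 and 14791 in knockouts 72, 73 and 86, against 5527, 5524 and 5950 in controls 30, 74 and 75. It rose by 1.19 (SE 0.12, adjusted p = 0.00612, limma), a value past the threshold without any 1 array. Another Fn1 probe set stood at 2.05 in the fit by probe set. Tnc, which encodes the matricellular protein tenascin C, had intensities of 3674, 3239 and 5176 in the same knockouts, against 936, 394 and 976 in the same controls. It rose by 2.44 (SE 0.36, adjusted p = 0.0229) and lost its call without control 75, knockout 72, knockout 73 or knockout 86 (highest adjusted p 0.0923). Postn, the periostin gene, stood at 0.67 (adjusted p = 0.0561) and Ecm1 at 0.84 (adjusted p = 0.0732).

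Genes that work beside collagen XVII in hemidesmosomes gave 6 tested of 10 listed, and 0 passed in limma, while array weights gave 2, both lower. Before adjustment, 2 of the 6 had a p under 0.05, Dst and Itgb4, where 21.4% of all genes tested did. The keratins Krt5 and Krt14 and the laminin chain Lamb3 lay below the filter. The plakin gene Dst stood at -0.38 (adjusted p = 0.126), the beta4 integrin Itgb4 at -1.01 (adjusted p = 0.129), the tetraspanin Cd151 at 0.24 (adjusted p = 0.322) and Itga6 at -0.51 (adjusted p = 0.365).

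Synaptic partners of collagens XIII and XXV gave 6 tested of 16 listed, of which 0 rose and 1 fell. Of all genes tested, 1.93% rose and 0.694% fell. Before adjustment, 1 of the 6 had a limma p under 0.05, where 21.4% of all genes did. The acetylcholinesterase anchor Colq and the kinase Musk, both known from the neuromuscular junction where collagen XIII acts, lay below the filter. Ptprd, a receptor phosphatase of the class that binds collagen XXV, had intensities of 215, 193 and 180 in knockouts 72, 73 and 86, against 328, 359 and 288 in controls 30, 74 and 75. It fell by 0.79 on the log2 scale (SE 0.14, adjusted p = 0.0366, limma), but kept its call in 0 of 6 fits of 5 arrays and had 0 calls with no normalization between arrays or with the mean of all probe sets. Other Ptprd probe sets above the filter stood at -0.92, with no overlap, and at -0.63, with overlap, in the fit by probe set. Chrnb1, a muscle acetylcholine receptor subunit, stood at -0.36 (adjusted p = 0.285), Ptprs at 0.21 (adjusted p = 0.455) and Agrn at 0.14 (adjusted p = 0.547).

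**Figure D4:**
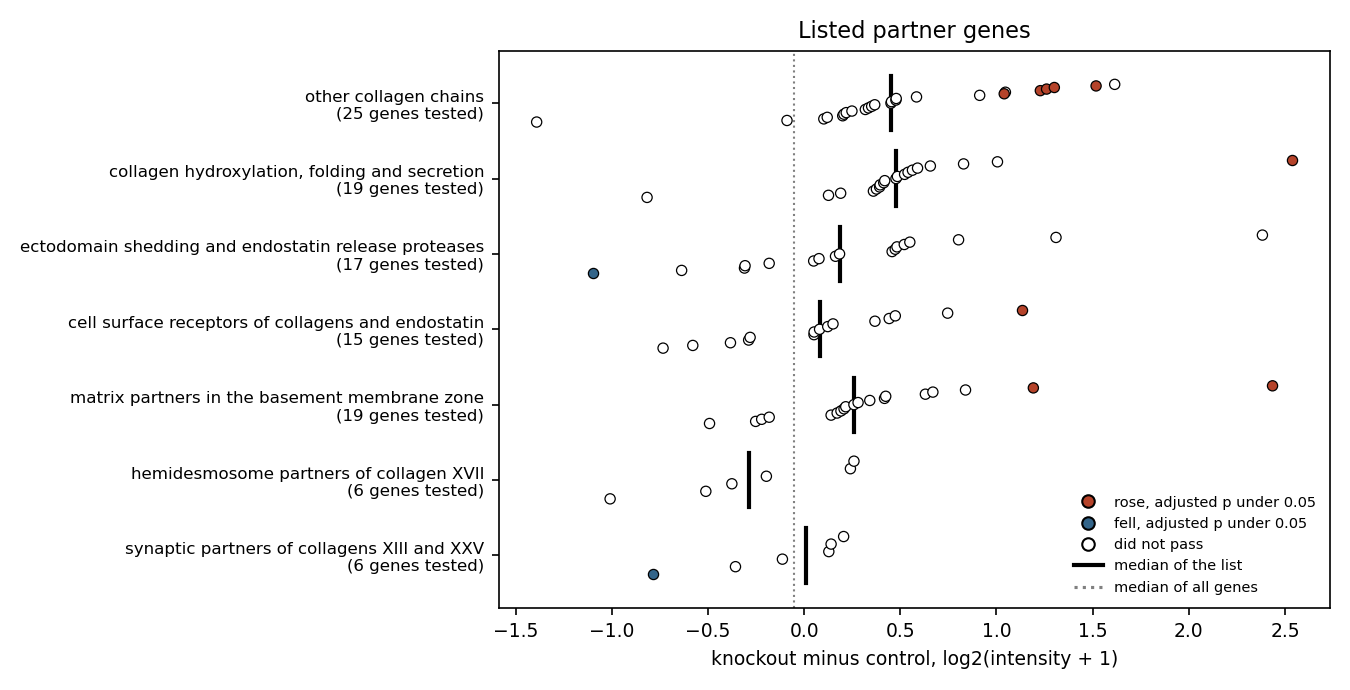
Knockout minus control (log2(intensity + 1)) for each tested gene of the 7 lists, as 1 point per gene, with the list median as a black bar and the median of all genes, -0.05, as a dotted line. Filled points passed the threshold: 5 collagen chains, P4ha3, Gpc1, Fn1 and Tnc rose, and Pcsk6 and Ptprd fell.

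The genes whose profile over the 6 arrays lay nearest to that of Col13a1 were found by the root mean square distance between profiles centred on their own means. They were Sv2b, a synaptic vesicle glycoprotein gene, at a distance of 0.38 log2 units, the transcription factor gene Atoh8 at 0.48, Tesc, a calcium-binding protein gene, at 0.52, the glutamate receptor gene Gria1 at 0.67 and the sarcomere gene Tcap at 0.75. Sv2b resembled Col13a1 in the knockouts, with log2 values of 6.63, 5.33 and 6.21 in knockouts 72, 73 and 86, against 9.09, 7.91 and 9.25 in controls 30, 74 and 75. Sv2b, Tesc, Gria1 and Tcap had their lowest value in knockout 73, as did Col13a1, and Atoh8 in knockout 86. The knockout means of Sv2b, Atoh8, Gria1 and Tcap (6.06, 4.84, 5.35 and 5.69) lay below the filter level. These genes thus entered the test through their level in the controls, and nothing is read from the order of their knockout arrays. For Gria1, knockouts 72 and 73 were nearly tied, at 5.16 and 5.15.

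Col15a1 had closer neighbours, all with higher values in the knockout. They were Fignl1, an ATPase gene of DNA repair, at 0.093 log2 units, the growth factor receptor gene Egfr at 0.12, the long non-coding RNA Morrbid at 0.12, Jpt2 at 0.12 and the ubiquitin ligase gene Hectd2 at 0.13. Egfr had log2 values of 9.14, 8.95 and 9.43 in knockouts 72, 73 and 86, against 8.24, 8.25 and 8.08 in controls 30, 74 and 75. These distances describe 6 arrays in 2 groups and rest mostly on the difference between the groups.

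Marker lists of other cells are given beside these collagens. Over all genes tested, 42.9% had a difference above 0 and 21.4% had an unadjusted p under 0.05, 9.91% higher and 11.5% lower. All 8 macrophage markers had a difference above 0, with a median of 1.66, 0 past the threshold in limma and 6 with an unadjusted p under 0.05, and their summed intensity was 7351 to 23847 in knockout and 2840 to 5143 in control arteries. Of these macrophage markers, Fcgr1 had a control mean of 5.25, below the filter level, and so entered the test through its level in the knockout. All 5 markers of cycling cells rose. The control means of Cdk1, Birc5 and Ube2c lay below the filter level, so these 3 entered the test through their level in the knockout. The list had a summed intensity of 3922 to 7056 in knockout and 246 to 274 in control arteries. All 8 endothelial markers had a difference below 0 (median -0.47, 0 past the threshold in limma, 3 with an unadjusted p under 0.05), with sums of 15451 to 20072 in knockout and 21064 to 24670 in control arteries. Of the 9 smooth muscle markers 8 had a difference below 0 (median -0.34, 0 past the threshold in limma, 3 with an unadjusted p under 0.05), with sums of 44968 to 58480 in knockout and 55462 to 67358 in control arteries, so the vessel wall markers were present in both groups.

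Of the 8 adventitial fibroblast markers 5 had a difference above 0 and 1, Mfap5, rose, where 1.93% of all genes tested rose. Before adjustment, 3 of the 8 had a limma p under 0.05 and were higher, where 9.91% of all genes were. The fibroblast sums were 28053 to 30181 in knockout and 18042 to 27063 in control arteries. The lowest fibroblast level was in control 30, and without that array Col13a1 differed by -2.95 and Col15a1 by 1.20. The macrophage level was highest in knockout 73, and without that array Col13a1 differed by -2.81 and Col15a1 by 1.32. Of 6 Schwann cell and nerve markers on the array 5 were tested, 4 with a difference below 0. Before adjustment, 3 of the 5 had a limma p under 0.05 and were lower, where 11.5% of all genes were. The Schwann cell and nerve sums were 4895 to 7420 in knockout and 8311 to 10674 in control arteries. All 10 epithelial and mesothelial markers lay below the filter, with sums of 250 to 332 in knockout and 253 to 298 in control arteries. The 5 adipocyte and 4 lymphatic markers tested all overlapped between the groups. The adipocyte sums were 16677 to 26276 in knockout and 14903 to 40232 in control arteries, so adipocyte transcripts were still measured. The lymphatic sums were 1980 to 3059 in knockout and 1183 to 2870 in control arteries. Of the 7 striated muscle markers 5 lay below the filter, among them Ttn and Myh6, which were lower in the knockout with no overlap, and the 2 tested overlapped. The part of these cells in the differences of Col13a1, Col15a1 and Col18a1 was not tested.

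**Figure D5:**
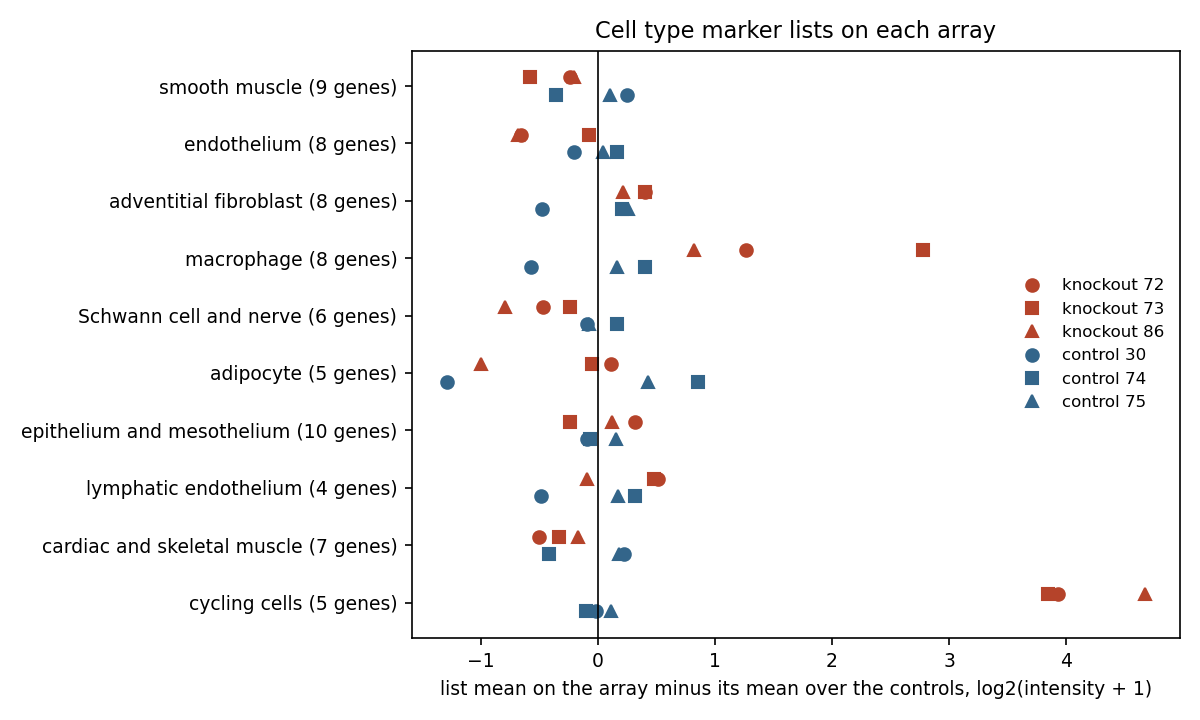
Mean log2(intensity + 1) of each marker list on each array, less its mean over the 3 control arrays, with the knockout arrays above the control arrays in each row. Every knockout array lies above every control array for the macrophage and cycling cell lists, and below for the Schwann cell and nerve list.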

How the data were processed

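Expression in 6 mesenteric artery samples, 3 knockout and 3 control, was read from the table the authors deposited, which holds 1 linear intensity per probe set and array. The sources used here do not state how probes were summarised or arrays scaled. Per the labels' protocols, total RNA was extracted with a MagNA Pure system and labelled with biotin. Probe sets were named from the platform annotation, in which 34945 of 45037 have 1 symbol; symbols were updated through a GRCm38.p6 table, which changed 0.

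Deposited intensities were transformed to log2(intensity + 1), quantile normalized and filtered at the median of all probe set means; the probe set with the highest mean stood for a gene. Groups were compared with limma 3.58.1 (R 4.3.3; lmFit, eBayes, 2-sided), with Benjamini-Hochberg adjustment over 11378 genes. The procedure was also run on simulated normal values with known changes. Their spread was drawn from the fitted limma prior, so the simulation could not test the assumptions of the model. Every probe set was also fitted without a filter.

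The genes followed and all lists were chosen with earlier results of these data known. The text names all 6 genes, per list those past the threshold and in any case the 4 with the smallest p, and the 5 nearest profiles of Col13a1 and of Col15a1, predicted transcripts skipped. Alternatives were other filters, pseudocount, scaling, gene summaries, array weights, prior, and leaving out each array. Protein features were not analysed here.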

Additional observations from a re-analysis of the deposited data

How the results depend on the processing

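The differences of Col13a1, Col15a1, Col18a1, Col23a1 and Col17a1 kept their sign in all 15 alternatives. Those of Col13a1 ranged from -3.33 to -2.81 and those of Col15a1 from 1.09 to 1.32. Col25a1 took both signs (-0.52 to 0.61 with 1 array left out). The count of genes past the threshold, 299 (220 higher, 79 lower, a share of 73.6% higher), varied widely with the setting. It was 174 with no filter (90.2% higher), 166 with the filter at the 70th percentile, 1197 with array weights (49.0% higher) and 68 to 270 with 1 array left out: 68 without knockout 72, 149 without knockout 73, 99 without knockout 86, 176 without control 30 and 84 without control 75. It was 310 with median centring (62.9% higher) and 258 with the filter taken over the probe sets with 1 symbol, an alternative chosen after seeing the data, in which Col23a1 lay below the filter. The 5 collagen chains were 2 with no filter, 10 with array weights (9 higher, 1 lower) and 1 to 4 with 1 array left out. Of the lists with 1 call, hydroxylation and folding gave 0 with no filter or the 70th percentile, 4 with array weights and 0 to 1 with 1 array left out. Proteases and receptors each gave 0 with no filter and 0 to 1 with 1 array left out. With array weights, proteases gave 5 (3 higher, 2 lower) and receptors 3 (2 higher, 1 lower). Synaptic partners gave 0 with no filter, no normalization or the mean of all probe sets, and 0 with any 1 array left out. The 2 matrix partners were 1 with no filter, 5 with array weights and 1 to 2 with 1 array left out. Hemidesmosome partners gave 0 in limma (2 at an unadjusted p under 0.05, where 21.4% of all genes were), 2 with array weights and 0 with any 1 array left out. Fits of 5 arrays hold fewer samples, and no filter means 18193 genes to adjust over; the cause of the other shifts was not tested. No paired analysis was possible because the groups share no animal number. Low signal limits Col17a1, Col23a1 and Col25a1.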
